A study of Homo sapiens with 4 samples.

Results

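The genes described here encode the RAS, RAF, MEK and ERK proteins of the mitogen-activated protein kinase cascade, in COLO205 cells with or without nonylphenol (NP). They were chosen by gene name and comprised NRAS, HRAS, BRAF, ARAF, MAP2K1, MAP2K2 and MAPK3, which are 7 of the 19970 genes in the deposited table. COLO205 is an established human colorectal cancer cell line, and NP is an alkylphenol with estrogenic activity. The study dissolved NP in the solvent DMSO and names DMSO as the control treatment of its proliferation assays. Cells of the control group received no NP and cells of the NP group received NP at 1 µM, each for 24 h and with 2 samples per group. All results therefore come from 1 cell line, 1 dose and 1 time, and the sources do not state if replicates were separate cultures. The spread behind each p-value is therefore that of these samples alone and may be technical.

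In this cascade, RAS proteins are small GTPases that are active while bound to GTP and recruit RAF kinases to the membrane. RAF kinases phosphorylate the kinases MEK1 and MEK2, which in turn phosphorylate the ERK kinases, and active ERK phosphorylates kinases and transcription factors that drive growth and division. The cascade is switched on mainly by GTP loading and phosphorylation, which RNA sequencing does not measure. It is frequently mutated in colorectal cancer, and COLO205 cells are known to carry an activating BRAF mutation, whose allele cannot be told apart from the normal allele in counts per gene.

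The libraries held 13401691 to 16998129 counted reads, with 14712 to 14893 genes detected by at least 1 read. Of 11 markers of colon epithelium, 10 were above 1 FPKM (reads scaled by gene length and library size) in every sample. The exception was KRT20, at 0.768 to 1.01 FPKM. CDX2, at 1.001 to 1.27 FPKM, and CDX1, at 1.55 to 1.91 FPKM, lay not far above this cutoff. The summed level of these markers was 1976 to 1982 FPKM in control and 1978 FPKM in both NP samples. Of 10 markers of leukocytes, fibroblasts and endothelial cells, 4 had no count in any sample, namely PTPRC, CD3E, COL1A2 and COL3A1. Only LYZ, the lysozyme gene, exceeded 1 FPKM in every sample, at 190.2 and 193.9 FPKM in control and 201.3 and 210.5 FPKM in NP. LYZ made up nearly all of the summed level of that list, which was 190.6 to 194.4 FPKM in control and 201.7 to 210.9 FPKM in NP samples.

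The study followed the activation of ERK proteins by NP, and the comparison here asks whether the RNA of the cascade's own genes differed after NP. None of the RAS, RAF, MEK and ERK genes passed the test for a difference between NP and control cells. All 7 had enough counts to be tested, with 325 to 2271 reads per gene and sample, and together they held 0.0528% to 0.0541% of the reads of a sample. In edgeR's quasi-likelihood test 0 of the 7 passed an adjusted p of 0.05, where 4.06% of the 12616 genes tested did (2.35% higher and 1.7% lower in NP). None had an unadjusted p under 0.05 in edgeR, in DESeq2 or in edgeR's exact test. Of all genes tested 15.1% did in edgeR, a share at which 0 of 7 genes is not unusual. No member reached the cutoff of the study's methods, an unadjusted p under 0.05 together with more than 1 on the log2 scale. Of the genes tested, 0.428% reached it in edgeR, whereas the study applied it with DESeq. The estimated changes were 1.31% to 8.29% in size. The 95% interval of each gene included no change. It was -12.9% to 1.10% for NRAS, -6.20% to 25.0% for HRAS, -6.58% to 15.8% for BRAF and -8.79% to 3.997% for ARAF. It was -1.24% to 15.5% for MAP2K1, -7.12% to 4.85% for MAP2K2 and -9.47% to 5.73% for MAPK3. For each gene, the data of 2 samples per group were compatible with true changes across its interval, no change among them. Counts from bulk RNA cannot tell fewer expressing cells apart from less RNA per cell.

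**Figure D1:**
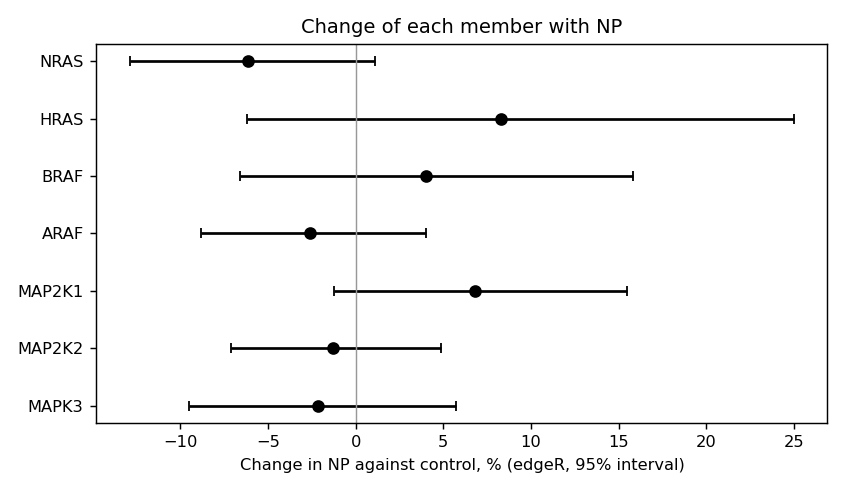
Change of each gene in NP against control cells in percent (horizontal axis), with the estimate of edgeR as a point and its 95% interval as a bar, from 2 samples per group. All 7 intervals include 0, the widest is that of HRAS, and the estimates lie between -6.16% for NRAS and 8.29% for HRAS.

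Of the RAS genes, NRAS encodes a GTPase of the plasma membrane and Golgi, and sits at 114704469 to 114716771 of chromosome 1 (minus strand, GRCh38, as for the other positions). Its scaled level was 85.9 and 83.4 CPM (counts scaled by library size and TMM) in control samples 1 and 2, and 77.8 and 81.3 CPM in NP samples 1 and 2. Both NP samples lay below both control samples, but the gap between the groups was smaller than the distance between the 2 samples of either group. The means were 84.6 ± 1.74 and 79.5 ± 2.46 CPM (SD, n = 2 each). The change on the log2 scale was -0.09 (standard error, SE, 0.054, 95% interval -0.20 to 0.02, edgeR adjusted p = 0.441), the smallest p among the 7 genes. HRAS, the other RAS gene of the set, is at 532242 to 537287 of chromosome 11, minus strand. HRAS had the fewest reads of the set, with 325 and 336 in control and 348 and 341 in NP samples, or 20.7, 21.5, 20.6 and 25.5 CPM in that order. NP sample 2 stood above the other samples while NP sample 1 was the lowest of all, so the groups overlapped. The spread between the NP samples was 15.1% of their mean, against 5.39% expected from counting alone. The log2 change of HRAS was 0.11 (SE 0.10, edgeR adjusted p = 0.677), and it was -0.037 without NP replicate 2 and 0.27 without NP replicate 1.

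Of the RAF genes, ARAF encodes the member of the family with weak kinase activity toward MEK, and is at 47561100 to 47571920 of chromosome X, plus strand. Its level was 107.6 and 106.1 CPM in control samples and 104.9 and 103.2 CPM in NP samples. The NP samples lay just below the control samples, with a change on the log2 scale of -0.04 (SE 0.047, edgeR adjusted p = 0.777). BRAF encodes the RAF kinase with the highest activity toward MEK, and is at 140719327 to 140924928 of chromosome 7, minus strand. Its level was 37.2 and 36.7 CPM in control and 37.7 and 39.4 CPM in NP samples. The NP samples lay above the control samples, with a gap smaller than the distance between the 2 control samples. The change on the log2 scale was 0.06 (SE 0.077, edgeR adjusted p = 0.805). Of the exon bases of BRAF, 5.29% are shared with NDUFB2 on the opposite strand, a gene of respiratory complex I. NDUFB2 itself had 107 and 109 reads in control and 139 and 104 in NP samples, against 527 to 638 for BRAF. Whether reads were counted by strand is not given in the sources used here, so reads from the shared bases cannot be told apart.

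MAP2K1, which encodes the kinase MEK1, is at 66386837 to 66491544 of chromosome 15, plus strand. Its level was 70.4 and 72.1 CPM in control samples and 77.2 and 74.9 CPM in NP samples. Both NP samples lay above both control samples, and the means were 71.3 ± 1.23 and 76.0 ± 1.57 CPM (SD, n = 2 each). The change on the log2 scale was 0.09 (SE 0.056, 95% interval -0.02 to 0.21, edgeR adjusted p = 0.451). Of the exon bases of MAP2K1, 11.5% are shared with genes on the opposite strand, SNAPC5 and the antisense RNA AC116913.1. SNAPC5 encodes a subunit of a complex that activates the transcription of small nuclear RNA genes. This gene was at 28.0 and 28.2 CPM in control and 31.1 and 31.2 CPM in NP samples, or 0.15 higher on the log2 scale (edgeR adjusted p = 0.439). Its part in the level of MAP2K1 was not tested. MAP2K2, which encodes MEK2, is at 4090321 to 4124122 of chromosome 19, minus strand. Its level was 132.4 and 135.5 CPM in control and 134.2 and 129.9 CPM in NP samples. The groups overlapped, with a change on the log2 scale of -0.02 (SE 0.044, edgeR adjusted p = 0.898), the smallest change of the set.

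MAPK3, which encodes ERK1, was the ERK gene of the set and is at 30114105 to 30123506 of chromosome 16, minus strand. Its level was 77.5 and 86.0 CPM in control and 77.6 and 82.8 CPM in NP samples. The samples numbered 1 were low and those numbered 2 were high in both groups, which overlapped completely. The spread between control samples was 7.35% of the mean, against 2.79% expected from counting. The change on the log2 scale was -0.03 (SE 0.056, edgeR adjusted p = 0.861), and it was 0.043 without control replicate 2 and 0.018 without NP replicate 1. Over all members, the NP and control samples did not overlap in 4 of 7 genes, higher in NP for MAP2K1 and BRAF and lower for NRAS and ARAF. The same held for 44.2% of all genes tested.

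**Figure D2:**
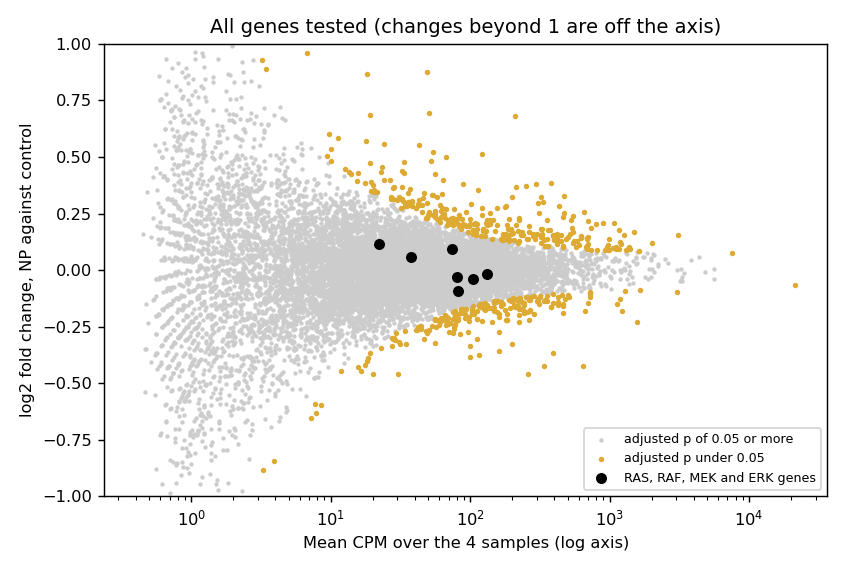
The log2 fold change of NP against control (vertical axis) against the mean CPM over the 4 samples (log axis) for the 12616 genes tested, with genes at an adjusted p under 0.05 in yellow and the RAS, RAF, MEK and ERK genes in black. The 7 black points lie inside the grey band of genes that did not pass.

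The level of 1 gene can be compared with that of another only per length, and here the order depended on which length was used. In the deposited FPKM values, which use the gene length of the table (equal to the summed exons of GENCODE release 29 for BRAF, ARAF and MAPK3), ARAF was highest at 30.3 ± 0.38 FPKM in control cells (SD, n = 2, as for the following). MAP2K2 followed at 25.7 ± 0.36, MAP2K1 at 24.0 ± 0.37, MAPK3 at 22.3 ± 1.60 and NRAS at 19.6 ± 0.44 FPKM. HRAS was at 11.2 ± 0.29 FPKM and BRAF at 1.58 ± 0.018 FPKM. In the NP samples MAP2K1, at 25.9 and 25.2 FPKM, overlapped MAP2K2, at 25.6 and 24.8 FPKM, so this pair had no fixed order. MAP2K1 and MAPK3 differed by about the spread of MAPK3. Among the genes tested, ARAF stood at the percentile 88.6 of control FPKM and BRAF at 22.5, with the other 5 between 68.4 and 86.5.

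The length of BRAF in the table is 23432 bases, against 6458 bases for its principal transcript in GENCODE release 29, a ratio of 3.63. For MAP2K2 the lengths were 5229 and 1734 bases, a ratio of 3.02, and for NRAS they were 4326 and 4449 bases. With the length of the principal transcript, a scale chosen after the data were seen, MAP2K2 was highest at 77.4 ± 1.09 FPKM in control cells. MAPK3 at 44.0 ± 3.14 and ARAF at 43.5 ± 0.54 FPKM came next and overlapped. MAP2K1 at 20.9 ± 0.32, NRAS at 19.1 ± 0.43 and HRAS at 18.4 ± 0.47 FPKM lay close together. NRAS at 18.8 to 19.4 FPKM and HRAS at 18.0 to 18.7 FPKM touched almost end to end in control cells and overlapped in NP cells. BRAF stayed lowest on both scales, at 5.74 ± 0.066 FPKM on this one. Which transcripts the cells made was not measured, so both scales are approximations for a gene with many isoforms, of which GENCODE lists 21 for BRAF and 1 for NRAS. The gene length cancels when a gene is compared with itself between samples, although a trend over all genes with length does not. With offsets for such a trend the log2 changes were 0.11 (table length) and 0.091 (principal length) for BRAF and 0.070 and 0.060 for HRAS. They were -0.012 and -0.043 for MAP2K2 and -0.042 and -0.050 for MAPK3, and no member passed with either offset. GENCODE also names 3 pseudogenes of ARAF, 1 of BRAF and 1 of MAP2K1, with which reads could be shared, so the levels of these genes are uncertain to that extent.

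**Figure D3:**
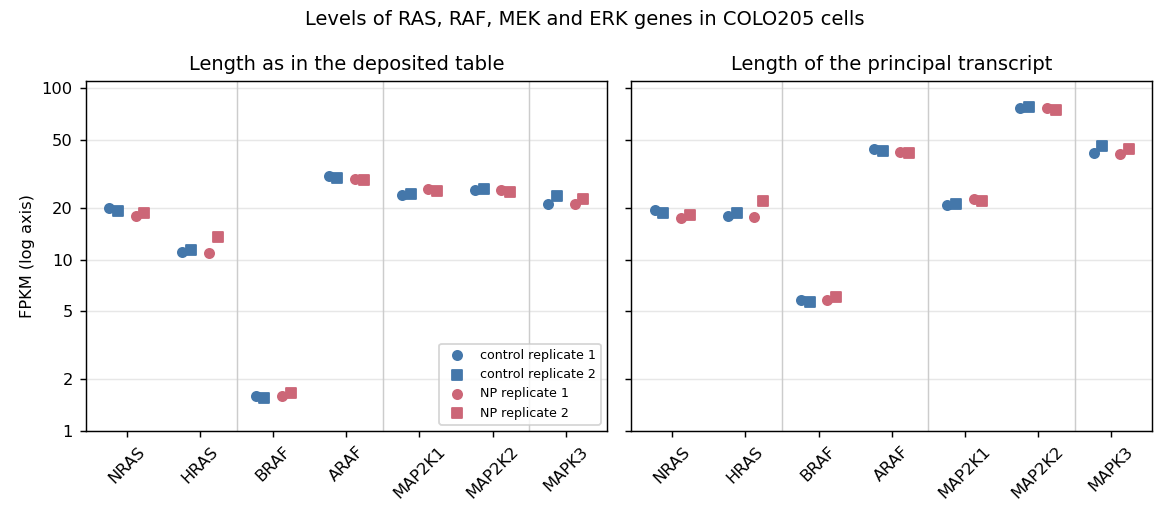
FPKM on a log axis in each of the 4 samples, control in blue and NP in red, with circles for replicate 1 and squares for replicate 2. On the left the length is that of the deposited table and on the right that of the principal transcript, where BRAF moves from 1.58 to 5.74 FPKM and MAP2K2 from 25.7 to 77.4 FPKM in control cells.

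Ratios between members of a tier were also computed in each sample, since they do not depend on the scaling of libraries. The ratio of MAP2K1 to MAP2K2 was 0.936 and 0.937 in control samples and 1.01 and 1.02 in NP samples (FPKM values of the table). This ratio was 8.22% higher in NP cells (8.06% to 8.38% with any 1 sample left out). Its replicates lay closer together than counting error, 2.99% for MAP2K1 and 2.18% for MAP2K2 in control cells, gives on average, so the range with 1 sample left out is no measure of its error. The ratio of NRAS to HRAS was 1.80 and 1.69 in control and 1.64 and 1.39 in NP samples, so the gap between the groups was smaller than the spread within each. The difference of the means was -13.1% (-20.5% to -5.73% with any 1 sample left out). That of ARAF to BRAF was 19.2 and 19.1 in control and 18.4 and 17.4 in NP samples, also without overlap but with a wider spread in the NP group. Its means differed by -6.49% (-9.28% to -3.69% with any 1 sample left out). With principal transcript lengths the level of these ratios was different. Their percent changes were the same by arithmetic, since the length of a gene is constant across samples. NRAS to HRAS was then 1.07 and 1.003 in control and 0.979 and 0.825 in NP samples. ARAF to BRAF was 7.59 and 7.58 in control and 7.31 and 6.88 in NP samples, and MAP2K1 to MAP2K2 was 0.270 and 0.271 in control and 0.292 and 0.293 in NP samples. With 2 samples per group, the exact two-sided permutation test cannot go below p = 0.333, and all 3 ratios were at that value. The 3 pairs were formed with the values of the genes known, and the ratios are given as a description.

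**Figure D4:**
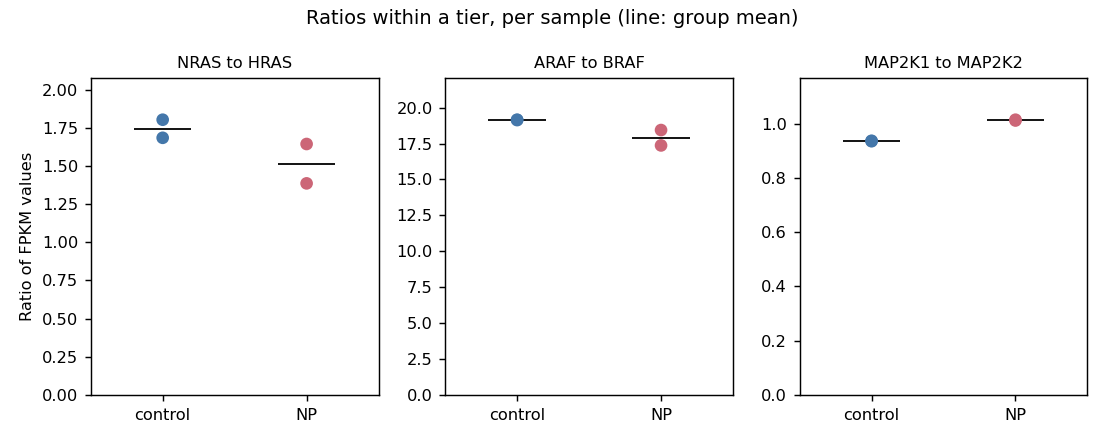
Ratio of the FPKM values of both members of a tier in each sample (vertical axes from 0), with control in blue, NP in red and a line at each group mean. The groups do not overlap in any of the 3 ratios, but the pairs were formed with the values of the genes known. Each ratio is at p = 0.333 in the exact two-sided permutation test, the lowest value possible here. Of all single genes tested, 44.2% did not overlap either. The MAP2K1 to MAP2K2 ratio is at 0.936 and 0.937 in control and 1.01 and 1.02 in NP samples.

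The promoters of the members had no part in their choice, and their sequence features varied. RefSeq (GRCh38.p14) holds windows of 300 bases, from 250 before to 50 after a start of transcription, with 2 windows each for MAP2K1 and MAP2K2 and 1 for each of the other genes. The window nearest to the start of the GENCODE principal transcript was taken. None of the 7 windows held the TATA box TATAAA on either strand, which 11.5% of 35116 promoter windows held. The GC box GGGCGG, which factors of the SP family bind, was in 5 of 7 windows on either strand, against 45% of all windows. It was most frequent in MAPK3, with 8 matches, and had no match in ARAF and BRAF, although the BRAF window lies 660 bases from the start of the GENCODE principal transcript. The ETS site CCGGAAG, bound by a family of factors that includes ERK targets, was in the windows of NRAS and HRAS, against 10.3% of all windows. The GC content was 57.3% for NRAS, the lowest of the set, and 80.7% for MAPK3, the highest, with a median of 58.7% over all windows. A match is a description of the letters and does not show binding. The windows of NRAS, at chr1:114716722-114717021 on the minus strand, and of MAP2K1, at chr15:66386662-66386961 on the plus strand, are shown because these genes had the smallest p in either direction. Capitals mark GC boxes on either strand and, in NRAS, also the ETS site that follows the third GC box.
NRAS: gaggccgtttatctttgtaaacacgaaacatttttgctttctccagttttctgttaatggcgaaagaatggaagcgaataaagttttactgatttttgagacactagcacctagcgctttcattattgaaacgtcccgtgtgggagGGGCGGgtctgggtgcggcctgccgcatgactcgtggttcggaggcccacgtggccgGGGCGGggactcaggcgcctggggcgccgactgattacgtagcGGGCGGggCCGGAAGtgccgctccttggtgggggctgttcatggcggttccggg
MAP2K1: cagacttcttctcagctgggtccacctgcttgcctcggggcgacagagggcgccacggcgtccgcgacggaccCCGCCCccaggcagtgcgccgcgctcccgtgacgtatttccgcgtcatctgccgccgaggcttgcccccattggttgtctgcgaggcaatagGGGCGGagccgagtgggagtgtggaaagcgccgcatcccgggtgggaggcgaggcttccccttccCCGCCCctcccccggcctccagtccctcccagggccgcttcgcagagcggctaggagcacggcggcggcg

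Genes that act beside the cascade were read from 8 lists in the same fit. In the 7 lists outside the transcripts that respond to ERK, 117 genes were tested, of which 1 rose, 3 fell and 113 did not pass in edgeR's quasi-likelihood test. Their median log2 fold change was -0.004, against 0.002 over all genes tested. None of 9 other RAS-type GTPases passed (1 lower at an unadjusted p under 0.05), and none of 17 activators and adaptors (none at an unadjusted p under 0.05). None of 29 scaffolds and regulators of RAF, MEK and ERK passed (unadjusted, 5 were higher and 1 lower under 0.05), and none of 23 genes of other MAP kinase branches (unadjusted, 1 higher and 1 lower). In these 4 lists no gene passed in DESeq2 either, where genes without an adjusted p were counted as not passing. The exact test of edgeR found 1 lower gene in them, in the other MAP kinase branches. The background of 4.06% of all genes tested applies to these counts too.

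Of 9 tested genes in the list of RAS GTPase-activating proteins, 1 fell, and it was IQGAP1, which carries a related domain but is known as a scaffold that binds RAF, MEK and ERK rather than as an activating protein. IQGAP1 was at 529.1 and 545.0 CPM in control and 502.9 and 485.6 CPM in NP samples, a change on the log2 scale of -0.12 (SE 0.030, edgeR adjusted p = 0.011). It passed in 9 of 16 other settings, and not without control replicate 2 or NP replicate 2, with either length offset or in the 3 limma settings on FPKM. Of 15 genes of RAS lipid modification and trafficking, 1 rose. This was ABHD17C, of a family of enzymes that remove palmitate from proteins such as NRAS, at 136.9 and 146.0 CPM in control and 163.4 and 154.9 CPM in NP samples. Its change on the log2 scale was 0.17 (SE 0.043, edgeR adjusted p = 0.0089), and it passed in 10 of 16 other settings, but not in DESeq2, without control replicate 1 or NP replicate 1, or in the 3 limma settings.

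Of 15 kinases and factors on which ERK acts, 2 fell and 13 did not pass. CIC, a transcriptional repressor that ERK signalling inactivates, was at 108.1 and 103.4 CPM in control and 90.7 and 89.9 CPM in NP samples. Its change on the log2 scale was -0.23 (SE 0.049, edgeR adjusted p = 0.0017), and it passed in 12 of 16 other settings, but not without control replicate 1 or in the 3 limma settings. ETS2, a transcription factor that ERK phosphorylates, was at 171.4 and 180.2 CPM in control and 158.2 and 161.1 CPM in NP samples, a change on the log2 scale of -0.14 (SE 0.041, edgeR adjusted p = 0.033). ETS2 passed in 7 of 16 other settings, and lost its call in DESeq2, in the 3 limma settings, with offsets for principal transcript length and whenever 1 sample was left out.

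Of 19 tested transcripts that respond to ERK, 8 fell, 11 did not pass and none rose (unadjusted, 1 was higher and 9 lower under 0.05). Of all genes tested, 1.7% fell and 2.35% rose. DESeq2 and the exact test of edgeR likewise gave 8 lower and none higher. Their median log2 fold change was -0.12, against 0.002 over all genes tested and -0.02 over the members. The 4 with the smallest p were EGR1 and FOS, transcription factors of the immediate-early response, IER3, an immediate-early gene, and SPRY4, which encodes an inhibitor that ERK induces. IER3 was at 383.5 and 393.7 CPM in control and 282.0 and 297.2 CPM in NP samples. FOS was at 182.4 and 179.5 CPM in control and 142.9 and 138.9 CPM in NP samples. EGR1 was at 732.7 and 749.2 CPM in control and 551.7 and 551.9 CPM in NP samples. SPRY4 was at 115.3 and 112.5 CPM in control and 90.7 and 83.3 CPM in NP samples. In each of these 4 genes the groups lay far apart relative to the spread within them, and each passed in 15 of 16 other settings, the exception being limma on log2(FPKM + 1) with no filter. The difference between this list and the members was not tested, and earlier results of these data on such transcripts were known when the list was written.

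**Figure D5:**
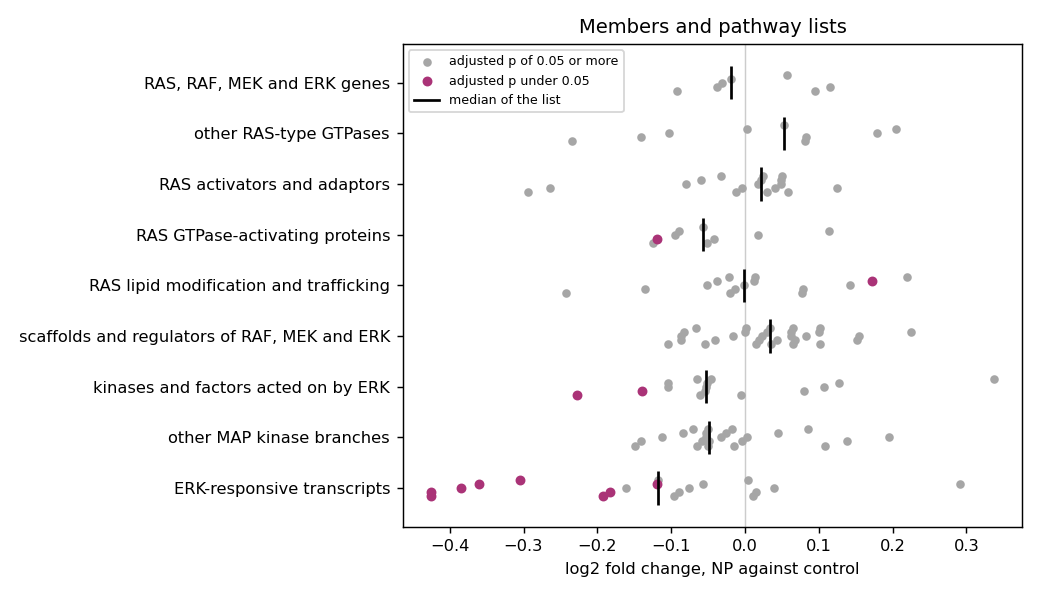
The log2 fold change of NP against control (horizontal axis) for each tested gene of the cascade and of the 8 lists, with genes at an adjusted p under 0.05 in purple and a line at the median of each row. The cascade genes lie between -0.09 and 0.11, and the 8 purple points among the ERK-responsive transcripts are all below 0.

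Among 136 tested genes of these lists, those whose centred log2 CPM over the 4 samples lay nearest to NRAS were PPP5C, PHLDA1 and ETV4, with root mean square differences of 0.010, 0.021 and 0.025. PPP5C, a protein phosphatase, was at 86.8 and 83.1 CPM in control and 78.2 and 82.5 CPM in NP samples. Over only 4 samples such likeness is a description.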

How the data were processed

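RNA of COLO205 cells was sequenced in 2 control and 2 NP samples. The authors deposited 1 table of raw counts and FPKM values, the latter equal to the count divided by the table's gene length and the summed counts of the sample. HISAT2, HTSeq and the build GRCh38 are named in the submitters' processing notes. Versions, annotation release and strand setting: not given in the sources used here. For calling genes the study used DESeq, with p under 0.05 and more than 1 on the log2 scale.

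Counts were filtered with filterByExpr of edgeR 4.0.16 (R 4.3.3, minimum count 10), scaled with TMM and tested with edgeR's quasi-likelihood test. The Benjamini-Hochberg adjustment ran over 12616 genes. Standard errors are the size of the log2 change over the root of F, and 95% intervals use the test's degrees of freedom. Alternatives were DESeq2 1.42.0, edgeR's exact test, RLE factors, library size only, 2 other filters, each sample left out, a replicate block, limma 3.58.1 on log2(FPKM + 1) and log2(FPKM + 0.1), and length offsets. The scripts were tested on simulated counts. Transcript lengths and overlaps came from GENCODE release 29, which covered 99.63% of the identifiers, and promoter windows from RefSeq, where all 7 genes matched.

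The members and lists were chosen with earlier results of these data known. Named are all members, up to 4 called genes per list with the smallest p, and the 3 list genes nearest to the member with the smallest p. Exon overlaps, tier ratios, promoter motifs and principal transcript lengths were added after the data were seen.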

Additional observations from a re-analysis of the deposited data

How the results depend on the processing

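No member passed an adjusted p of 0.05 in any of the 16 alternatives. Among fits on all 4 samples the lowest adjusted p was 0.379 (MAP2K1, edgeR with offsets for principal transcript length). DESeq2 gave no adjusted p for HRAS and BRAF (unadjusted p = 0.436 and 0.613), and genes without one were counted as not passing. Among fits on all 4 samples, the only unadjusted p under 0.05 was 0.047, for MAP2K1 in limma on log2(FPKM + 1) with no filter. NRAS, BRAF, ARAF and MAP2K1 kept their direction in all 16 alternatives. Their NP and control samples did not overlap, so leaving out 1 sample could hardly reverse them. The remaining alternatives refit the same 4 samples. HRAS turned to -0.037 without NP replicate 2, MAP2K2 to 0.0031 without NP replicate 2, and MAPK3 to 0.043 without control replicate 2 and 0.018 without NP replicate 1; the cause was not tested. Leaving out 1 sample gave log2 fold changes of -0.12 to -0.058 for NRAS, -0.037 to 0.27 for HRAS, 0.028 to 0.090 for BRAF, -0.051 to -0.027 for ARAF, 0.072 to 0.11 for MAP2K1, -0.044 to 0.0031 for MAP2K2 and -0.11 to 0.043 for MAPK3. With the replicate number as a block, the members' log2 fold changes were -0.09, 0.12, 0.06, -0.04, 0.09, -0.02 and -0.03 in that order, at adjusted p of 0.410 or more (edgeR), and 652 genes passed (13 of the lists). Same-numbered samples did not deviate together over 12616 genes (correlation of -0.0090). With 2 pairs this cannot tell whether same-numbered samples shared a culture or batch. Over all genes, 512 passed (297 higher, 215 lower), against 181 in DESeq2 (109 and 72), 61 in limma on log2(FPKM + 1) (45 and 16), 71 with 0.1 in its place (53 and 18) and 0 with log2(FPKM + 1) and no filter. Leaving out 1 sample gave 171 to 387 genes (104 to 237 higher, 67 to 150 lower), with 171 without control replicate 1, 387 without control replicate 2, 224 without NP replicate 1 and 326 without NP replicate 2. Of the list genes, 12 passed (1 higher, 11 lower), against 6 in limma with either added value (0 higher, 6 lower) and 0 with no filter. The number higher was 0 in DESeq2 and 2 with either length offset, and 0 to 1 with 1 sample left out (8 to 10 genes in all, 8 to 9 lower). With offsets for table length and principal transcript length, NRAS was at -0.093 and -0.069, HRAS at 0.070 and 0.060, BRAF at 0.11 and 0.091, ARAF at -0.050 and -0.044, MAP2K1 at 0.075 and 0.11, MAP2K2 at -0.012 and -0.043, and MAPK3 at -0.042 and -0.050. Offsets for principal transcript length were chosen after the data were seen. With 2 samples per group and 325 to 2271 reads per gene, the members' intervals span the changes that remain compatible with the data.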
